A study of Mus musculus with 8 samples.

Results

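The GFP-positive sorted cells of mouse alveolar organoids are 4 of the 8 libraries of this series, 1 from each of the organoid lines SN2285, SN2286, SN2293 and SN2294. They were chosen by name, as the 4 columns of the deposited count table that end in GFP_plus, and no measured value entered the choice. The other 4 libraries hold the GFP-negative cells of the same 4 lines. All 8 come from lung cells of mice with an Sftpc-eGFP transgene, in which enhanced green fluorescent protein (GFP) reports on the gene of surfactant protein C. The lines were kept as three-dimensional cultures in FNHCAS medium and 90% matrigel with no treatment, and were divided by fluorescence-activated sorting. Both groups therefore share the transgene, the medium and the matrix, and differ in GFP fluorescence. The sources used here give neither the strain and age of the mice nor whether the lines stem from separate animals. The p-values between sorts thus measure the spread between these libraries. Those between lines measure only what is left of that spread once sort and line are accounted for. The stated aim was a comparison of expression between eGFP+ and eGFP- cells.

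Alveolar type 2 (AT2) cells are the secretory cells of the lung's air sacs. They make surfactant, a film of phospholipids and surfactant proteins that lowers surface tension, store it in lamellar bodies and recycle it. They also act as progenitors of the flat alveolar type 1 (AT1) cells across which gas is exchanged, and pass through a keratin-rich transitional state on the way.

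The GFP-positive libraries held 12279080 (SN2285), 11202576 (SN2286), 13124989 (SN2293) and 16032633 (SN2294) counts. The GFP-negative libraries of the first 3 lines held 14408203 to 15583384 counts, and that of SN2294 held 5910344. Levels are given as CPM, the counts of a gene as a share of its library's counts put on the usual counts-per-million scale, adjusted with a composition factor per library. The table has no row for GFP itself. Leukocyte markers stood apart in a single library: Csf1r, the receptor of a macrophage growth factor, was at 10.9 CPM in the GFP-negative cells of SN2294 and at 0.0608 CPM or less in those of the other 3 lines.

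The 5 markers set for AT2 cells were abundant in all 4 lines. Sftpc, surfactant protein C, stood at 19242, 17222, 19282 and 14804 CPM in the GFP-positive cells of SN2285, SN2286, SN2293 and SN2294, against 1267, 438, 593 and 1181 CPM in the GFP-negative cells. Slc34a2, the phosphate transporter that recovers phosphate from surfactant, stood at 3818 to 4178 CPM in GFP-positive cells and at 197 to 379 CPM in GFP-negative cells. Lamp3, a membrane protein of lamellar bodies, had 2355 to 3035 CPM in GFP-positive cells and 563 to 704 CPM in GFP-negative cells. Abca3, the lipid pump of the lamellar body membrane, was the steadiest of the 5, at 838 to 865 CPM in GFP-positive cells and 189 to 251 CPM in GFP-negative cells. Cxcl15, a chemokine of lung epithelium, had 3390 to 4590 CPM in GFP-positive cells and 276 to 380 CPM in GFP-negative cells. The 2 sorts did not overlap for any of the 5, and the share of all genes without overlap is not given here. All 5 were higher in GFP-positive cells (edgeR, false discovery rate (FDR) of 0.05), where 18.9% of all 12848 genes tested were called higher (2430) and 21.8% lower (2801). With library size alone as the scale these counts were 1509 and 4188, and the median over all genes moved to -0.161 on the log2 scale. The sort was made on a reporter of Sftpc, so that gene's difference is built into the groups. In bulk RNA, fewer cells of a type and less RNA per cell cannot be told apart.

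Transcripts of non-epithelial cells and of rarer airway cells were close to absent in the GFP-positive libraries. The leukocyte genes Tyrobp, Itgax, Cd3e and Marco, the endothelial genes Cdh5, Emcn and Cldn5, the tuft cell regulators Pou2f3 and Gfi1b and the neuroendocrine regulator Insm1 had 0 counts in all 4. A count of 0 allows up to 3 counts, or 0.06 CPM over the 4 libraries together. Tcf21, a fibroblast regulator, was also at 0, and Pdgfra, a receptor of lung fibroblasts, stood at 0.942 to 1.14 CPM in GFP-positive cells, against 46.1 to 74.8 CPM in GFP-negative cells. The summed level of 12 fibroblast and smooth muscle genes was 21.4 to 30.8 CPM in GFP-positive cells and 571 to 939 CPM in GFP-negative cells. Sums for the ciliated list (11 genes) were 5.78 to 8.39 CPM in GFP-positive cells, and Foxj1, the regulator of ciliated cells, stayed at 0.762 CPM or less. The endothelial sum was 3.81 to 5.79 CPM and the neuroendocrine sum 6.56 to 9.08 CPM in the same cells, most of which came from Egfl7 and from Uchl1. The leukocyte list summed to 30.1 to 176 CPM in GFP-positive cells and 397 to 475 CPM in GFP-negative cells, mostly from Lyz2, which AT2 cells express too. The goblet list summed to 15.6, 59.0, 10.9 and 4.48 CPM in the GFP-positive cells of SN2285, SN2286, SN2293 and SN2294, and to 21.4 to 80.5 CPM in GFP-negative cells. The limit given for a count of 0 covers counting error only, and the ranges are the lowest and highest of the 4 lines.

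Expression in the GFP-positive cells was spread over many genes with a steep top. All 4 libraries had at least 1 CPM for 11536 of the 23284 genes of the table, at least 10 CPM for 8936, at least 100 CPM for 2110 and at least 1000 CPM for 86, while 6833 genes had 0 counts in all 4. The 10 highest genes of a library took 7.82 to 8.82% of its counts in GFP-positive cells, against 4.35 to 4.75% in GFP-negative cells. The top 100 took 21.9 to 23.5% in GFP-positive cells and 15.8 to 16.8% in GFP-negative cells. The genes needed to reach 50% of all counts numbered 813 to 863 in the GFP-positive sort, against 1087 to 1162 in the GFP-negative sort. Surfactant proteins A1, B, C and D together made up 3.07 to 3.61% of the counts in GFP-positive cells and 0.385 to 0.534% in GFP-negative cells. The genes of ribosomal proteins took a similar share in both sorts, 3.80 to 4.16% in GFP-positive cells and 4.15 to 4.69% in GFP-negative cells.

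By CPM, which is not corrected for gene length, the highest gene was not a surfactant gene. Clu, which encodes the secreted chaperone clusterin, stood at 24058 CPM in SN2285, 20146 in SN2286, 20762 in SN2293 and 20570 in SN2294, first in rank in each. It was also high in the GFP-negative cells, at 13873, 8487, 11133 and 10237 CPM. Sftpc ranked second, Scd1, the stearoyl-CoA desaturase that makes monounsaturated fatty acids, was next (9773 to 11269 CPM), and Sftpa1, surfactant protein A, followed it (6379 to 7919 CPM), in this order in all 4 lines. Sftpb (5645 to 6657 CPM), which organises the surfactant film, and Sftpd (4429 to 4978 CPM), a collectin of lung defence, were among the first 8. The rest of the 25 highest genes came from a few trades. Scd2 and Fasn, the fatty acid synthase, belong to lipid synthesis. Ctsh, the cathepsin that processes surfactant proteins B and C, and Npc2, a carrier of cholesterol in lysosomes, belong to the lysosome. Trf (transferrin), Lcn2 (lipocalin 2, which binds bacterial iron carriers) and Ly6e are defence or iron genes, and Ldha and Pkm2 (now Pkm) are enzymes of glycolysis. Eef1a1, Eef2, Hsp90ab1, Actb and Tmsb4x are housekeeping genes, Krt7 is a keratin of simple epithelia, and Rn45s is ribosomal precursor RNA, which took 0.264 to 0.429% of counts in the GFP-positive libraries.

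**Figure D1:**
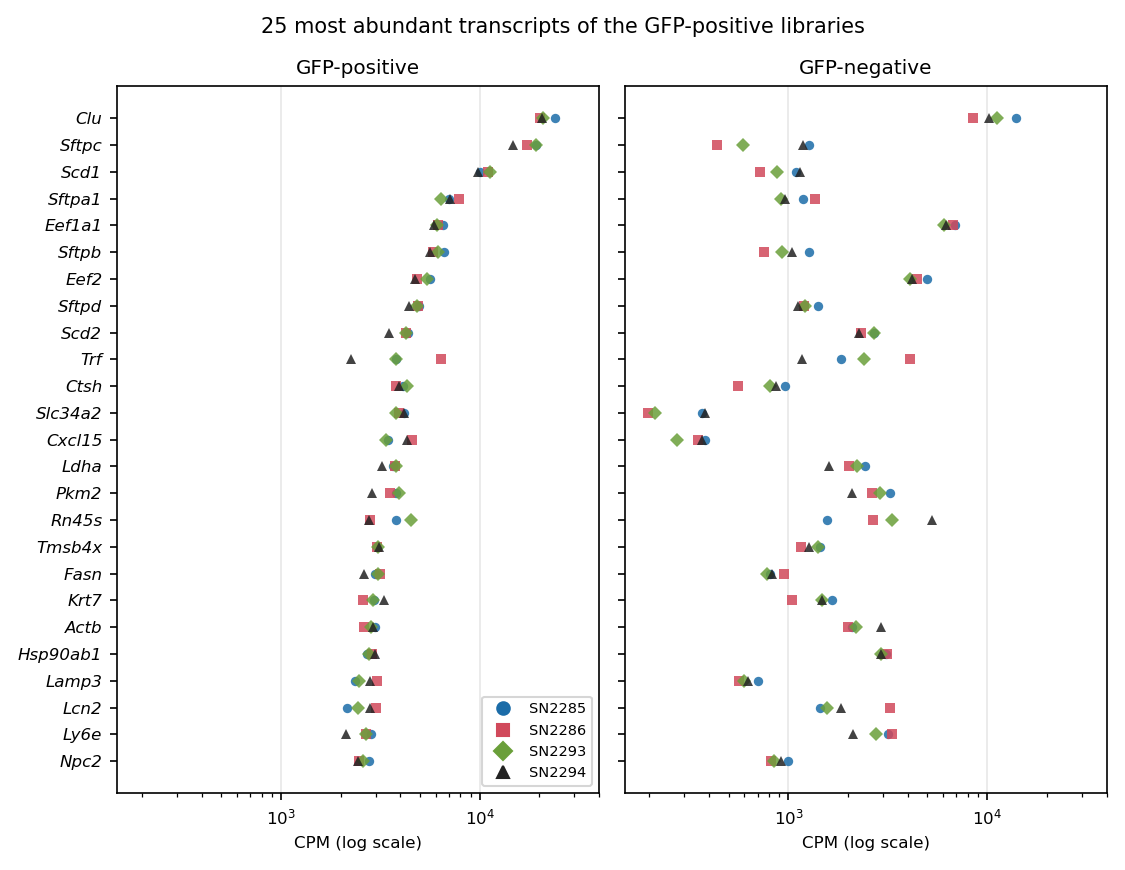
CPM (log axis) of the 25 transcripts with the highest mean CPM in GFP-positive cells, by organoid line, in GFP-positive cells (left) and GFP-negative cells (right), 1 library per point. In GFP-positive cells the 4 lines lie close together for most genes, and Trf spans 2243 to 6423 CPM.

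The order at the top was shared by the lines. Of the 100 highest genes of each GFP-positive library, 82 were among the 100 highest in all 4. The SD of log2 CPM over the 4 lines had a median of 0.116 for the 100 highest genes and 0.14 for the 10372 genes with a mean of 5 CPM or more. Tmsb4x, which encodes the actin-binding thymosin beta 4, was the steadiest of the 25, at 3032 to 3121 CPM. Of these 25, 18 were called higher and 0 lower in GFP-positive than in GFP-negative cells, with the ranking made on the GFP-positive values. The shares over all genes tested were 18.9% and 21.8%. Eef1a1 had 5924 to 6527 CPM in GFP-positive cells and 6079 to 6909 CPM in GFP-negative cells, ranges that overlap. Trf was the exception to the closeness of the lines, with 6423 CPM in SN2286, 3816 in SN2285, 3776 in SN2293 and 2243 in SN2294, and the same highest and lowest line in GFP-negative cells (4108 CPM in SN2286, 1174 CPM in SN2294).

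Per kilobase of exon, the scale on which genes can be compared with each other, surfactant protein C came first. Sftpc averaged 22270 CPM per kilobase, and Clu 11814. Sftpb (3907 CPM per kilobase), Sftpd (3750), Eef1a1 (3446), Lcn2 (2847), Ctsh (2501), Sftpa1 (2483), Ftl1 (2324), Tmsb4x (2244) and Scd1 (2181) followed. Ftl1 is the light chain of ferritin, which stores iron. The long transcript of Fasn fell to 295 CPM per kilobase. Of the 25 genes with the highest CPM, 16 were also among the 25 highest per kilobase, and the same number with the longest transcript as length. Lengths were at hand for 10277 of the 10372 genes at 5 CPM or more (99.1%).

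The surfactant and lamellar body list was carried almost whole. Of its 26 genes, 18 averaged 100 CPM or more in GFP-positive cells, 23 were called higher and 3 lower than in GFP-negative cells. The shares over all genes tested were 18.9% higher and 21.8% lower. Muc1, an apical mucin, stood at 1336 to 1492 CPM in GFP-positive cells and at 294 to 437 CPM in GFP-negative cells. Lpcat1, which remodels surfactant phosphatidylcholine, had 269 to 317 CPM in GFP-positive cells and 41.2 to 50.7 CPM in GFP-negative cells (log2 fold change 2.62, adjusted p = 3.0e-09, edgeR). Chi3l1 (now Chil1), a chitinase-like protein, stood at 1117 to 1686 CPM in GFP-positive cells and at 88.8 to 188 CPM in GFP-negative cells. Not all members that AT2 cells are known for were high. Napsa, the aspartic protease of lamellar bodies, had only 31.5, 27.8, 51.1 and 14.4 CPM in SN2285, SN2286, SN2293 and SN2294. Hc, complement component 5, had 2.48 to 4.74 CPM in GFP-positive cells. The 3 members called lower were Lyz2 (18.3 to 163 CPM in GFP-positive cells, 366 to 446 CPM in GFP-negative cells), the alarmin Il33 (12.3 to 111 CPM in GFP-positive cells, 163 to 290 CPM in GFP-negative cells) and the lipid transporter Mfsd2a (0.942 to 3.24 CPM in GFP-positive cells, 10.4 to 18 CPM in GFP-negative cells). Lyz2 encodes lysozyme and can share reads with its near-identical copy Lyz1, so their split is uncertain.

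Fatty acid and sterol synthesis took another large share. Its 21 genes summed to 21099 to 23496 CPM in GFP-positive cells and 7689 to 7975 CPM in GFP-negative cells, and 14 were called higher and 1 lower (10 and 3 with library size alone as the scale). Over all genes tested, 18.9% were called higher and 21.8% lower on the main scale. Most of the sum was Scd1, Scd2 and Fasn (2636 to 3144 CPM). Acly, which makes cytosolic acetyl-CoA, had 836 to 957 CPM in GFP-positive cells and 492 to 553 CPM in GFP-negative cells. Chka, Pcyt1a and Chpt1, enzymes of phosphatidylcholine synthesis, stood at 173 to 204, 93.6 to 121 and 37.0 to 44.6 CPM in GFP-positive cells, and all 3 were called higher. The exception was Elovl6, a fatty acid elongase, at 27.0 to 57.7 CPM in GFP-positive cells and 105 to 144 CPM in GFP-negative cells. Srebf1 and Srebf2, which switch on these pathways, did not pass the test between sorts (adjusted p = 0.32 and 0.084). Hmgcs1, an enzyme of sterol synthesis, had at most 0.315 CPM in any of the 8 libraries.

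All 24 lung lineage transcription factors averaged 1 CPM or more in the GFP-positive cells, and 10 of them 100 CPM or more. The AT2 regulators Etv5 (282 to 365 CPM), Nkx2-1 (235 to 291 CPM), Cebpa (202 to 225 CPM) and Id2 (281 to 317 CPM) were called higher than in GFP-negative cells, as were Foxa2, Gata6 and Elf5. In total 12 were called higher and 8 lower, where 18.9% of all genes were called higher and 21.8% lower. The airway regulator Sox2 had 1.04 to 9.81 CPM in GFP-positive cells and 87.9 to 114 CPM in GFP-negative cells. Foxa1 went the other way from Foxa2: it had 75.7 to 91.4 CPM in GFP-positive cells and 242 to 298 CPM in GFP-negative cells.

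AT1 and transitional genes were part of the same sorted population. Of 20 AT1 genes, 10 averaged 100 CPM or more in GFP-positive cells, and 11 of the 16 tested were called higher and 1 lower than in GFP-negative cells. Over all genes tested, 18.9% were called higher and 21.8% lower. Aqp5, a water channel of AT1 and other lung cells, stood at 1348 to 1816 CPM in GFP-positive cells and 1084 to 1377 CPM in GFP-negative cells. Ager, the receptor for advanced glycation end products, which marks AT1 cells, had 156, 86.4, 234 and 70.8 CPM in the GFP-positive cells of SN2285, SN2286, SN2293 and SN2294, and 6.56 to 22.4 CPM in GFP-negative cells. Pdpn, podoplanin, was the member called lower, at 47.9 to 63.0 CPM in GFP-positive cells and 169 to 272 CPM in GFP-negative cells. The other 4, Igfbp2, Spock2, Sec14l3 and Cyp2b10, averaged under 1 CPM. All 13 genes of the alveolar transitional state averaged over 10 CPM, 11 of them 100 CPM or more. Clu, Krt7 (2584 to 3308 CPM), Krt18 (1714 to 2055 CPM) and Krt19 (1031 to 1300 CPM) were among those 11. Of these 13, 7 were called higher and 3 lower, the cell cycle inhibitor Cdkn1a, Sfn and Nupr1. With library size alone 4 were called in each direction.

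Antigen presentation and proliferation were also present. Cd74, the invariant chain of MHC class II, had 286 to 410 CPM in GFP-positive cells and 35.9 to 80.5 CPM in GFP-negative cells, and 6 of 7 tested genes of the MHC class II list were called higher. Over all genes tested, 18.9% were called higher and 21.8% lower. The 16 cell cycle genes summed to 3458 to 4238 CPM in GFP-positive cells and 3490 to 3832 CPM in GFP-negative cells, 9 called higher and 1 lower (6 and 1 with library size alone, 13 and 1 with the line as a block). Mki67, a proliferation marker, stood at 647, 841, 827 and 842 CPM in the GFP-positive cells of SN2285, SN2286, SN2293 and SN2294, and at 540 to 636 CPM in GFP-negative cells. Of 15 genes of plastic, fetal or gut epithelium, 1 averaged over 10 CPM in the GFP-positive cells: Lgr5, a receptor of stem cells in gut, at 45.1 to 75.8 CPM. Of the 9 genes of this list that were tested, 2 were called higher and 6 lower, with a median log2 fold change of -1.69. Sox2 and Sox9 were among those called lower. Dlk1, an imprinted gene of fetal tissues, was low but higher in GFP-positive cells, at 4.35 to 8.57 CPM, against 0 to 0.472 CPM in GFP-negative cells.

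Airway genes were mostly low traces, with a few exceptions. Of the 15 basal genes, 13 were called lower, where 21.8% of all genes were called lower and 18.9% higher. Trp63, the regulator of basal cells, had 5.91, 2.86, 2.89 and 2.73 CPM in the GFP-positive cells of SN2285, SN2286, SN2293 and SN2294, which is 3.13, 1.41, 1.61 and 1.47% of its level in the GFP-negative cells of the same line. Krt5, a basal keratin, stood at 3.16, 0.929, 1.54 and 1.13% and the basal receptor Ngfr at 0.856 to 2.73% of the GFP-negative level, with SN2285 highest each time. SN2285 was the highest line for 11 of the 15 basal genes in GFP-positive cells, and 0 of the 15 passed the edgeR test of any line against the other 3. At an unadjusted p under 0.05, 5 of the 15 passed for SN2285 and 2 for SN2286, and DESeq2 called 2 for SN2285. Bcam and Icam1, cell adhesion genes that the basal list also holds, were the 2 called higher, at 966 to 1201 and 1251 to 1510 CPM in GFP-positive cells. Of the 12 club and secretory genes tested, 6 were called lower and 0 higher, by edgeR and by DESeq2, and 6 had an unadjusted p under 0.05. The club cell genes Cyp2f2 and Cbr2, both called lower, stood at 1.53 to 3.82% and 1.01 to 2.53% of their GFP-negative levels. Other members had higher values in the GFP-positive cells of 3 lines and did not pass. Scgb1a1, the secretoglobin of club cells, had 12.2, 49.3, 15 and 1.23 CPM in the GFP-positive cells of SN2285, SN2286, SN2293 and SN2294, and 5.55, 8.27, 4.26 and 2.83 CPM in the GFP-negative cells (adjusted p = 0.19, edgeR). Bpifa1, a secreted airway defence protein, had 121, 731, 174 and 0.260 CPM in GFP-positive cells and 70.5, 367, 108 and 7.87 CPM in GFP-negative cells of the same lines (adjusted p = 0.71, edgeR).

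**Figure D2:**
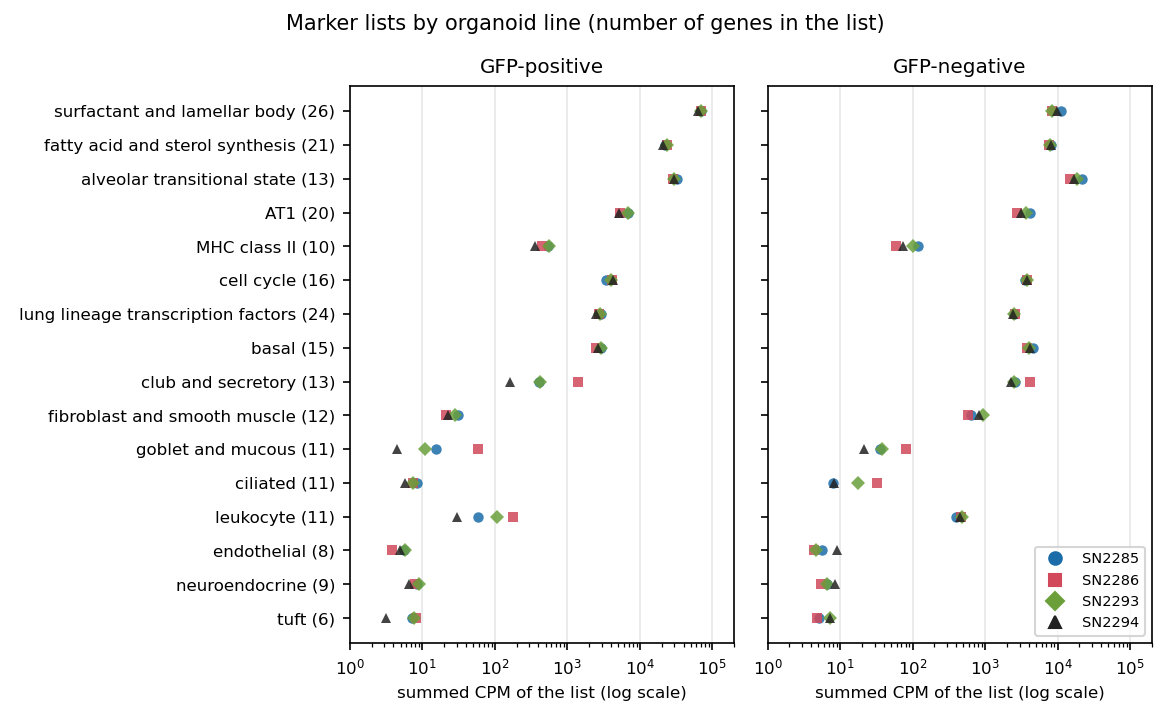
Summed CPM (log axis) of 16 marker lists in GFP-positive cells (left) and GFP-negative cells (right), 1 point per line, with the number of genes of each list. In GFP-positive cells the 4 lines nearly coincide for the surfactant, lipid, transitional and cell cycle lists, and the club and secretory list spans 161 to 1388 CPM.

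The 4 lines differed most in a limited set of genes. Across genes, log2 CPM of 2 GFP-positive libraries correlated at r = 0.977 to 0.989. The 5% most variable of the 10372 genes had an SD of log2 CPM of 0.405 or more, and 88 had an SD of 1 or more. The first principal component of the 4 libraries took 51.2% of the variance and set SN2294 (40.3) apart from SN2285 (-17.2), SN2286 (-17.8) and SN2293 (-5.39). With 1 GFP-positive library per line, no difference between lines can be tested within the sort. The lines were therefore tested with both libraries of each line, in a fit with the sort and the line as terms. These are the GFP-positive and GFP-negative fractions of a line, and no line has a second library of either sort. A difference between lines thus cannot be told apart from one between their cultures or sort runs. It called a line term for 683 of 12848 genes (5.32%, edgeR, FDR of 0.05). In simulated data with 200 changed genes, this fit called 158 of them and 33 unchanged genes. False calls there thus took a larger share of the calls than that FDR. In the measured data, 14 of the 100 most abundant genes were called. Among the 25 most variable 12 were called, a share that the choice raises, since the GFP-positive libraries used to pick them also enter the fit.

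Each line was then set against the mean of the other 3. SN2285 was higher for 167 genes (1.3%) and lower for 73 (0.568%), SN2286 higher for 212 (1.65%) and lower for 57 (0.444%), SN2293 higher for 65 (0.506%) and lower for 8 (0.0623%), and SN2294 higher for 295 (2.3%) and lower for 517 (4.02%). At 2-fold or more, SN2294 was lower for 177 genes and higher for 46. All 4 contrasts use the same 8 libraries, so they are not independent of each other. In the GFP-positive libraries alone, SN2294 was 2-fold or more below the mean of the other 3 for 211 of 10372 genes, and for 196 of these it was also below that mean in the GFP-negative libraries, which were not used to pick them, 98 of them by 2-fold or more. Of all genes below that mean in the GFP-positive library of SN2294, 61.9% were also below it in the GFP-negative ones. In the other lines the sign was kept for 94 of 96 genes that were 2-fold or more higher in SN2286, 38 of 40 in SN2285 and 28 of 31 in SN2293. Over all genes higher in the line's GFP-positive library, the shares were 62.8% (SN2286), 68.4% (SN2285) and 55.5% (SN2293). With a library left out, its line keeps 1 library, which the term of that line fits exactly. Only the other 3 lines then set the error. Counts from such fits describe dependence on single libraries and do not check a call. Leaving out the GFP-negative library of SN2294 raised the line-term calls to 1824, 642 of them among the 683. Leaving out the GFP-positive library of SN2294 raised them to 1462, leaving out the GFP-positive or the GFP-negative library of SN2293 lowered them to 386 and 370, and leaving out the GFP-negative library of SN2286 to 440. The counts per line moved more. Without its GFP-negative library SN2285 had 23 genes higher and 8 lower, and SN2286 had 103 and 5. Without the GFP-negative library of SN2294 the other 3 lines had more, with 667 higher and 539 lower in SN2285, 396 and 148 in SN2286, and 348 and 70 in SN2293. Without the GFP-positive library of SN2294, SN2286 had 558 genes higher and 431 lower and SN2294 had 411 and 461. SN2294 ranged over 111 to 449 genes higher and 339 to 757 lower when any 1 library was left out. Scaling by library size alone gave 451 genes higher and 466 lower in SN2294.

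**Figure D3:**
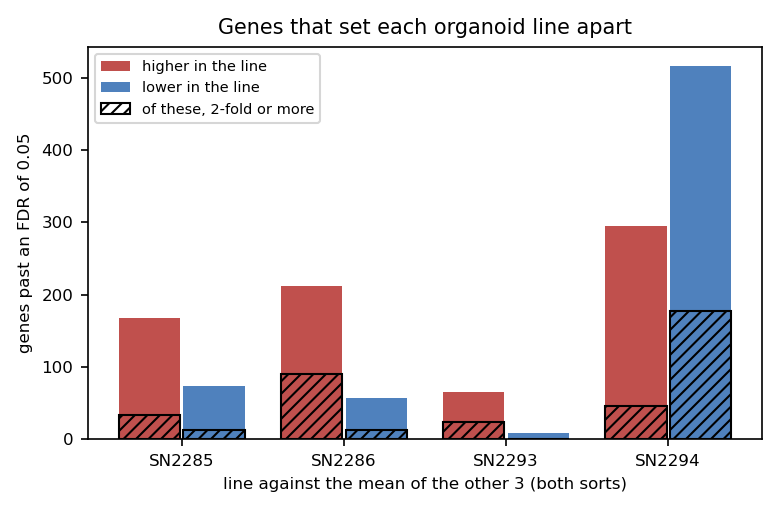
Number of genes past an FDR of 0.05 that were higher (red) or lower (blue) in each line than the mean of the other 3, from 2 libraries per line. Hatched bars show those that differed 2-fold or more, of which 177 were lower in SN2294.

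The 25 genes that varied most among the GFP-positive libraries had an SD of log2 CPM of 1.72 or more. They were Xist, the Y-linked genes Uty, Kdm5d, Eif2s3y and Ddx3y, secretory genes (Bpifa1, Bpifb1, Scgb3a1, Scgb1a1, Lyz1, Reg3g, Muc5b, Ltf), interferon-induced genes (Oas2, Oas3, Gm4951, Mx1, Trim30d, Iigp1, Ifi44), and Zxdc, Hif3a, Clca2, Susd2 and Adm. In the GFP-negative libraries, which did not enter this ranking, 18 of the 25 had the same highest line and 23 the same lowest line. Over the 10372 genes, 39.4% shared the highest and 38.2% the lowest line between the sorts. Without the GFP-positive library of SN2294, 15 of the 25 stayed among the 25 most variable. SN2294 had the lowest GFP-positive level for all secretory and interferon-induced genes among the 25.

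**Figure D4:**
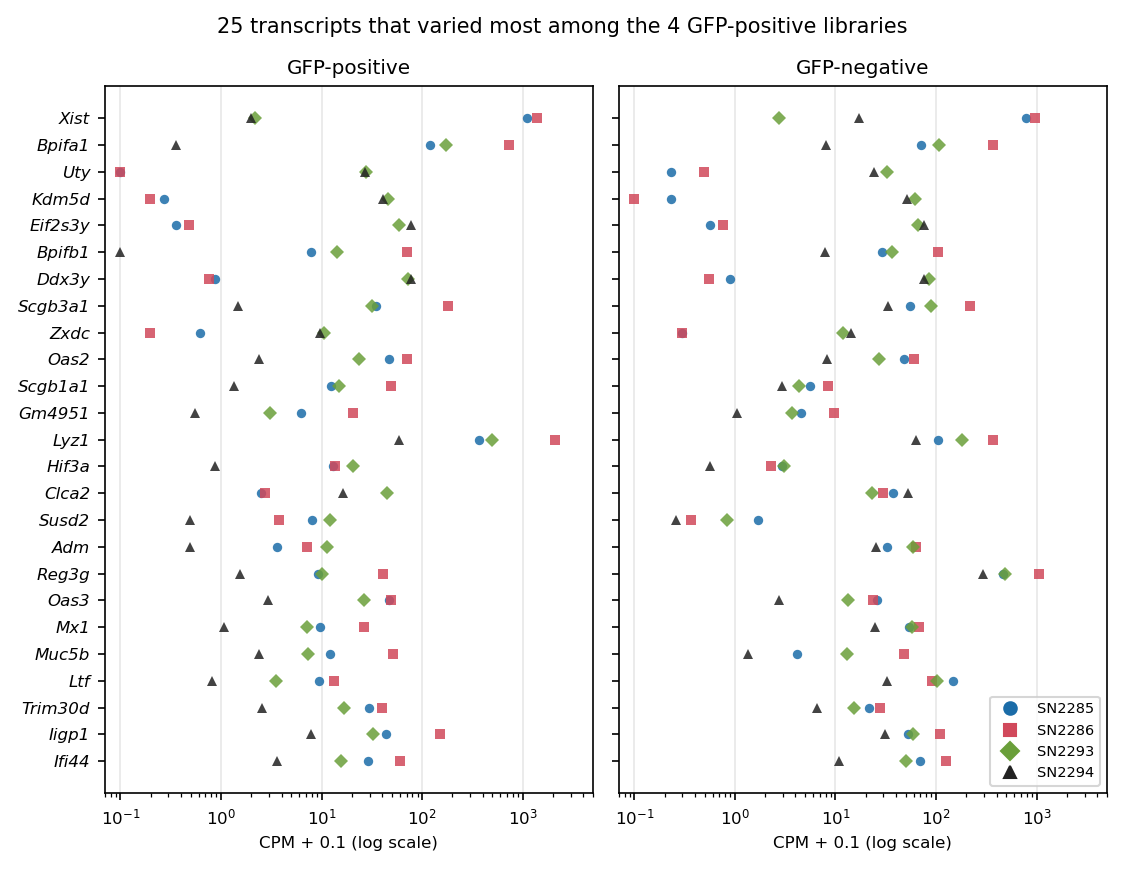
CPM + 0.1 (log axis) of the 25 genes with the largest SD of log2 CPM among the 4 GFP-positive libraries, in GFP-positive cells (left) and GFP-negative cells (right), 1 library per point. SN2294 is the lowest point for most secretory and interferon-induced genes in both sorts, and the lines split into pairs for Xist, Zxdc and the Y-linked genes.

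The lines fell into pairs for the sex-linked genes. Xist, the RNA that silences an X chromosome in female cells, had 1103 and 1385 CPM in the GFP-positive cells of SN2285 and SN2286, and 2.09 and 1.88 CPM in those of SN2293 and SN2294. Its GFP-negative levels were 788, 960, 2.68 and 17 CPM in SN2285, SN2286, SN2293 and SN2294. Ddx3y, a Y-linked RNA helicase, was at 0.771 and 0.666 CPM in the GFP-positive cells of SN2285 and SN2286 and at 72.0 and 77.4 CPM in those of SN2293 and SN2294. Kdm5d, Eif2s3y and Uty did the same, Uty with 0 counts in the GFP-positive cells of SN2285 and SN2286, which allows up to 0.257 and 0.286 CPM. Kdm6a, an X-linked gene with a Y-linked relative in Uty, stood at 41.0 and 44.8 CPM in SN2293 and SN2294 and at 63.5 and 68.6 CPM in SN2285 and SN2286. Zxdc, a zinc finger gene that lies on chromosome 6 in the reference used here, followed the Y-linked genes: 10.5 and 9.55 CPM in SN2293 and SN2294, against 0.514 and 0.0952 CPM in SN2285 and SN2286. Its GFP-negative levels kept the pairs, at 11.9 and 14.2 CPM in SN2293 and SN2294 and 0.2 and 0.197 CPM in SN2285 and SN2286. Any difference between these pairs of lines cannot be told apart from one that goes with the sex-linked genes. By chromosome, the median of each line's log2 difference from the other 3 in GFP-positive cells lay between -0.0612 and 0.0783 over 20 chromosomes.

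Interferon-induced genes set SN2294 apart. Cells make these proteins when interferons bind their receptors, and they block viral replication, tag proteins or amplify the response. Isg15, a ubiquitin-like protein that is attached to other proteins, had 9.55 CPM in SN2294, against 50.9 in SN2285, 63.7 in SN2286 and 30.9 in SN2293, all in GFP-positive cells. Irf7, a transcription factor that amplifies the response, had 14.0 CPM in SN2294, against 92.2 in SN2285, 92.0 in SN2286 and 49.0 in SN2293. Oas1a, a sensor of double-stranded RNA, had 6.17 CPM in SN2294, against 42.0 in SN2285, 52.4 in SN2286 and 24.4 in SN2293. SN2294 was the lowest of the lines for each. Ifit3, which acts in the block of viral replication, had 13.3 CPM in SN2294, against 66.9 in SN2285, 91.3 in SN2286 and 44.9 in SN2293. In the fit with both sorts, the log2 fold change of SN2294 against the other 3 was -2.09 for Isg15 (SE 0.13, adjusted p = 2.0e-06), -2.04 for Irf7 (SE 0.17, adjusted p = 1.1e-04) and -2.40 for Oas1a (SE 0.14, adjusted p = 8.7e-07).

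The whole interferon response list moved with these genes. All 14 of its members had a called line term, against 5.32% of all genes. The list was chosen with earlier results of these data known, so this count is not independent support. In SN2294 14 of 14 were called lower, with a median log2 fold change of -2.02, against a median of 0.00776 for all genes tested. In SN2286 14 were called higher (median 1.26), in SN2285 11 were called higher (median 0.724), and in SN2293 0 were called in either direction by edgeR or DESeq2, with 2 at an unadjusted p under 0.05 (median -0.0655). The summed CPM of the 14 was 330 in SN2294, 1075 in SN2285, 1382 in SN2286 and 741 in SN2293 in GFP-positive cells, and 489, 1318, 1676 and 968 in the same lines in GFP-negative cells. SN2294 was the lowest line for all 14 in GFP-positive cells. Between GFP-positive and GFP-negative cells 0 of the 14 passed in edgeR, 0 at an unadjusted p under 0.05 and 0 in DESeq2, where 40.7% of all genes passed. With the line as a block, which pairs the libraries of a line, 2 of the 14 were called higher and 11 lower in GFP-positive cells (median log2 fold change -0.34). Without the GFP-negative library of SN2294, 14 were still called lower in that line (median -2.29), and without its GFP-positive library 13 were (median -1.73). The 11 calls in SN2285 became 1 without its GFP-positive library and 4 without its GFP-negative library. The sums were higher in SN2285 and SN2286 than in SN2293 and SN2294, the pairs that the sex-linked genes form, and SN2294 was not tested against SN2293 alone. Of the 11 leukocyte genes, 4 had 0 counts in all 4 GFP-positive libraries, and the macrophage gene Cd68 had 11.3 to 19.4 CPM there. In the GFP-negative library of SN2294, which the line fit also uses, Csf1r had 10.9, Itgax 8.34 and Tyrobp 7.40 CPM, against 0.0656 CPM or less in the other 3 GFP-negative libraries. The part of leukocyte RNA in this result was not tested.

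The promoters of these genes are shown because a motif can be read in them beside the values. The motif searched was GAAA, any 2 bases, then GAAA again, on both strands and with overlaps, a shared core of the elements that interferon-activated factors bind. The windows run from 250 bases before to 50 after the start of transcription, from RefSeq on GRCm38.p6, 5′ to 3′ on the strand of the gene, with matches in capitals. Isg15 lies on the minus strand at chr4:156200769-156201068, Oas1a on the minus strand at chr5:120907476-120907775, Ifit3 on the plus strand at chr19:34583279-34583578 and Irf7 on the minus strand at chr7:141266375-141266674.
Isg15: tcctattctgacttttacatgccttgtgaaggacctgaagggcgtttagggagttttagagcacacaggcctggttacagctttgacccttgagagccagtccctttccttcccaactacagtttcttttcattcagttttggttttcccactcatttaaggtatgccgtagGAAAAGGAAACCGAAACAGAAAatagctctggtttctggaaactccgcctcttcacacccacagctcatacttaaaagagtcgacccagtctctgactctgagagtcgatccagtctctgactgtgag
Oas1a: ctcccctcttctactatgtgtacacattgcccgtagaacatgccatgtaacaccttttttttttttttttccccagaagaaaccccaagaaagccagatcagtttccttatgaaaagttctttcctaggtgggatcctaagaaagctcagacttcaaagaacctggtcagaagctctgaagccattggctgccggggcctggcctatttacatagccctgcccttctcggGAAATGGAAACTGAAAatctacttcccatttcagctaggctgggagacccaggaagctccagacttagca
Ifit3: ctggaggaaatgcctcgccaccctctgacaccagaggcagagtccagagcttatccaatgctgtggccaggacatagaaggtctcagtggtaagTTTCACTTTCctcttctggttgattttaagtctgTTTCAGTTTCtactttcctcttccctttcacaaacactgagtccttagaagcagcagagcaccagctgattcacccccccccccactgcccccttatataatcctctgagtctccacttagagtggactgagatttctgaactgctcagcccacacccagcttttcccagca
Irf7: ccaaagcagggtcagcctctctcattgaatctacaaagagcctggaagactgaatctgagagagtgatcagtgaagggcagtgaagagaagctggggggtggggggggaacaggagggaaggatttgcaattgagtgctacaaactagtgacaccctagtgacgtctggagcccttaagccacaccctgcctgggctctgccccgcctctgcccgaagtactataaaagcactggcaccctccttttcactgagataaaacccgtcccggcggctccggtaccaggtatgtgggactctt
Isg15 had 3 overlapping matches, Oas1a 2 overlapping ones and Ifit3 2 separate ones, and the window of Irf7 held none. Of the 10 list members with a promoter in the table, 6 held the motif: Ifit1, Ifit3, Isg15, Bst2, Oas1a and Rsad2. Ifit2, Oasl2, Irf7 and Ifi44 had no match in this window, which says nothing on the factors that act there. Of all 32851 promoters of the table, 1131 held the motif (3.44%), and of the 10171 genes tested that had a promoter, 363 did (3.57%). Of the 177 genes that were 2-fold or more lower in SN2294, 129 had a promoter, and 31 of these held the motif (24.0%). A match is a description of the sequence, not a site shown to be bound.

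**Figure D5:**
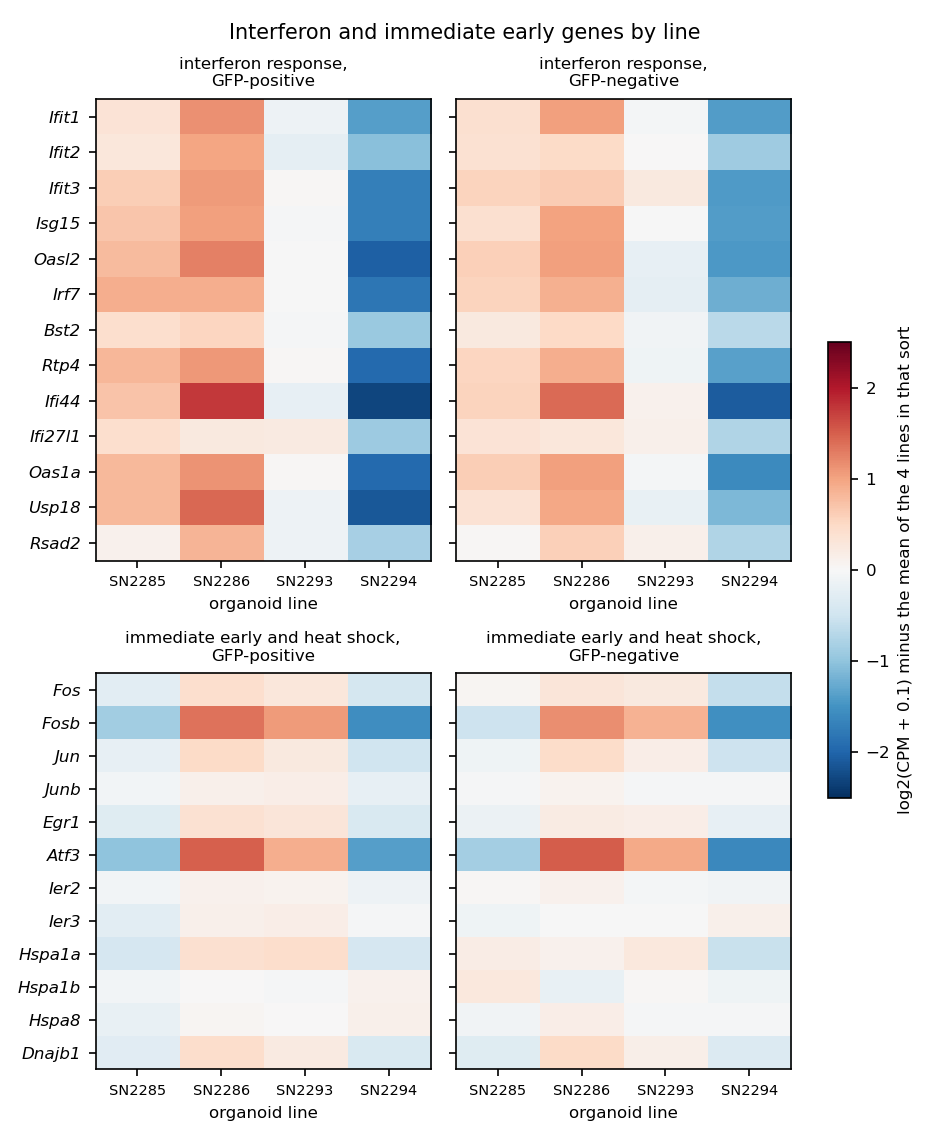
Log2(CPM + 0.1) minus the mean of the 4 lines within a sort (red above, blue below), for the interferon response list (top) and the list of immediate early and heat shock genes (bottom), in GFP-positive cells (left) and GFP-negative cells (right). All 13 interferon response genes shown, of the 14 listed, are lowest in SN2294 in GFP-positive cells; Fosb and Atf3 are high in SN2286 and SN2293 and low in SN2285 and SN2294.

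Some immediate early genes also differed between the lines. These are transcription factors that cells switch on within minutes of a stimulus, cell dissociation included. Fosb had 888 and 718 CPM in the GFP-positive cells of SN2286 and SN2293, and 189 and 118 CPM in those of SN2285 and SN2294. Atf3, a stress-induced transcription factor, had 499 and 334 CPM in SN2286 and SN2293, and 89 and 68.2 CPM in SN2285 and SN2294. The GFP-negative cells had the same order, with 1133 CPM of Atf3 in SN2286, 770 in SN2293, 219 in SN2285 and 130 in SN2294. The log2 fold change of Atf3 was 2.00 in SN2286 (SE 0.08, adjusted p = 7.5e-08), 1.24 in SN2293 (SE 0.08, adjusted p = 5.5e-06), -1.24 in SN2285 (SE 0.09, adjusted p = 4.8e-05) and -2.0 in SN2294 (SE 0.10, adjusted p = 2.7e-07), each against the other 3 lines. Of the 12 genes of the immediate early and heat shock list, 6 had a called line term, Fos, Fosb, Jun, Egr1, Atf3 and Dnajb1, against 5.32% of all genes. This list too was chosen with earlier results of these data known. In SN2286 5 of the 12 were called higher (1.65% of all genes), in SN2293 2 higher (0.506%), in SN2285 3 lower (0.568%) and in SN2294 6 lower (4.02%). Leaving out any 1 library gave 4 to 6 in SN2286, 2 to 4 in SN2293 (4 without the GFP-negative library of SN2294), 2 to 5 in SN2285 (5 without the GFP-positive library of SN2294) and 5 to 7 in SN2294. Junb, Ier2 and Ier3 did not pass the line test (adjusted p = 0.43, 0.49 and 0.36).

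Secretory genes varied widely by line, and how many were called differed between the tools. Of the 12 club and secretory genes tested, edgeR called a line term for 1 and DESeq2 for 6, and 9 had an unadjusted p under 0.05. Over all 12848 genes tested, edgeR called 683 (5.32%) and DESeq2 756. DESeq2 called 4 of the 12 higher in SN2286 and 6 lower in SN2294, where edgeR called 1 in each. Over all genes tested, DESeq2 called 207 higher in SN2286 and 494 lower in SN2294, and edgeR 212 and 517. Bpifa1 had 731 CPM in the GFP-positive cells of SN2286 and 0.260 CPM in those of SN2294. Scgb3a1, a secretoglobin of airway secretory cells, had 34.5, 182, 31.7 and 1.36 CPM in the GFP-positive cells of SN2285, SN2286, SN2293 and SN2294. Lyz1 stood at 366, 2079, 493 and 59.0 CPM in GFP-positive cells and at 105, 366, 182 and 63.1 CPM in GFP-negative cells. SN2286 was highest and SN2294 lowest in GFP-positive cells for these genes and for Scgb1a1. None of the 4 passed the line term in edgeR (adjusted p = 0.15 for Bpifa1, 0.30 for Scgb3a1, 0.20 for Scgb1a1 and 0.23 for Lyz1), where 3 of the 4 had an unadjusted p under 0.05 and DESeq2 called 2. With 1 library of SN2294 left out, the term of that line fits its remaining library exactly. The adjusted p of such a fit is therefore no check on Bpifa1 and is not given. The 1 member of the list with a line term called by edgeR was Cbr2, a carbonyl reductase of club cells that was lower in SN2294 (log2 fold change -1.58 with an SE of 0.18, adjusted p = 9.3e-04). The median log2 fold change of the 12 genes was 1.391 in SN2286 and -1.567 in SN2294. Without the GFP-negative library of SN2294 these medians were 2.091 and -3.201, and without its GFP-positive library 1.145 and -1.034. Muc5b, a gel-forming mucin, had 51.8 CPM in the GFP-positive cells of SN2286, against 12.2, 7.24 and 2.27 CPM in those of SN2285, SN2293 and SN2294. It was called higher in SN2286 (adjusted p = 0.044), a call lost with no filter on low counts (0.13) and without any 1 of the libraries of SN2286 or SN2294 (0.17 to 0.44).

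AT1 genes also differed between lines. Of the 16 tested, 9 had a called line term, against 5.32% of all genes, in a list chosen with earlier results of these data known. Of the 16, 6 were called higher in SN2285 (1.3% of all genes), 2 higher in SN2293 (0.506%) and 6 lower in SN2294 (4.02%). In SN2286 edgeR called 0 in either direction, 8 had an unadjusted p under 0.05, and DESeq2 called 4 lower. Hopx, a homeodomain protein of AT1 cells, had 18.4 CPM in SN2294, against 88.3 in SN2285, 44.6 in SN2286 and 86.1 in SN2293 in GFP-positive cells (log2 fold change -1.54 with an SE of 0.21, adjusted p = 0.0041). Col4a4, a basement membrane collagen, had 9.55 CPM in SN2294, against 29.1, 18.4 and 36.4 CPM in SN2285, SN2286 and SN2293 (log2 fold change -1.58 with an SE of 0.18, adjusted p = 1.9e-04). Vegfa, the growth factor by which AT1 cells signal to capillaries, had 144 CPM in SN2294, against 333, 319 and 422 CPM in SN2285, SN2286 and SN2293 (log2 fold change -0.92 with an SE of 0.16, adjusted p = 0.012). Ager had a called line term (adjusted p = 0.029), but no line passed on its own against the other 3. Clic5, a chloride channel protein, was higher in SN2285 (352 CPM, against 237, 342 and 183 CPM in SN2286, SN2293 and SN2294; adjusted p = 0.0074). The count in SN2285 depended on single libraries, with 3 genes called without its GFP-positive library, 0 without its GFP-negative one, 2 and 3 without the GFP-positive or the GFP-negative library of SN2293, 3 without the GFP-negative library of SN2286 and 10 without that of SN2294. In SN2293 it ranged over 0 to 5, and was 0 without either of its own libraries. In SN2294 it ranged over 5 to 9. The Pdpn and Aqp5 levels of the lines did not pass (adjusted p = 0.42 and 0.13).

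Beyond these groups, SN2294 was low for single genes. Hif3a, a member of the hypoxia-inducible factor family, had 0.780 CPM in SN2294, against 13.0, 13.5 and 20.3 CPM in SN2285, SN2286 and SN2293 in GFP-positive cells (log2 fold change -3.99 with an SE of 0.37, adjusted p = 4.4e-05). The GFP-negative cells had 0.472 CPM in SN2294, against 2.87, 2.17 and 2.98 CPM. Susd2, a surface protein, had 0.390 CPM in SN2294, against 7.88, 3.71 and 12 CPM in SN2285, SN2286 and SN2293, a call (log2 fold change -3.94) lost without the GFP-positive library of SN2294 (adjusted p = 0.36). H2-Ab1, a chain of MHC class II, had 18.7 CPM in SN2294, against 72.1, 48.8 and 75.3 CPM in SN2285, SN2286 and SN2293 (log2 fold change -1.86 with an SE of 0.13, adjusted p = 5.6e-06), the 1 member of its list with a called line term. Pkm2 was lower as well, with 2866 CPM in SN2294, against 3776, 3561 and 3940 CPM (log2 fold change -0.43, adjusted p = 0.011). Ldha had 3224 CPM in SN2294, against 3675, 3752 and 3779 CPM, and did not pass the line term (adjusted p = 0.16). Trf was lower in SN2294 (log2 fold change -1.09 with an SE of 0.10, adjusted p = 5.8e-05) and higher in SN2286 (1.13, SE 0.09, adjusted p = 3.1e-05). Rrm2, a subunit of the enzyme that makes deoxyribonucleotides, was higher in SN2294, at 218 CPM, against 142, 165 and 158 CPM (log2 fold change 0.53 with an SE of 0.07, adjusted p = 6.0e-04), as were Ccne1 and Tyms, which act at the entry into and during DNA synthesis. SN2294 was the highest line for 12 and SN2285 the lowest for 13 of the 16 cell cycle genes in GFP-positive cells.

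Single genes also stood out in the other 3 lines. In SN2286, Gm4951, a relative of interferon-induced GTPases, had 20.7 CPM, against 6.16, 2.97 and 0.455 CPM in SN2285, SN2293 and SN2294 (log2 fold change 2.73 with an SE of 0.27, adjusted p = 1.9e-04). Npy2r, a receptor of neuropeptide Y, had 14.9 CPM in SN2286, against 4.88, 4.02 and 0.780 CPM (log2 fold change 2.59 with an SE of 0.28, adjusted p = 2.9e-04), a call lost without the GFP-positive library of that line (adjusted p = 0.088). Pdlim2 was lower in SN2286, at 37.2 CPM, against 62.8, 68.9 and 48.6 CPM (log2 fold change -0.78, adjusted p = 0.0024), a call lost without its GFP-negative library (adjusted p = 0.12). In SN2285, Sectm1b had 11.2 CPM, against 4.47, 5.15 and 2.01 CPM in SN2286, SN2293 and SN2294 (log2 fold change 1.58 with an SE of 0.17, adjusted p = 0.0010). In SN2293, the chemokine Cxcl5 (191 CPM, against 205, 353 and 511 CPM in SN2285, SN2286 and SN2294) and Chi3l1 (1117 CPM, against 1137, 1480 and 1686 CPM) were called lower, with log2 fold changes of -0.67 and -0.59. With Arg2, Rnf144b and Kdm6a they make up 5 of its 8 lower genes. The calls of Cxcl5, Arg2 and Rnf144b were lost without any 1 of the libraries of SN2293 or SN2286, that of Chi3l1 without all of these but the GFP-positive library of SN2293, and that of Kdm6a without either SN2293 library or the GFP-negative one of SN2286.

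The abundant surfactant genes lay close together in the lines, and some members of the list did not. Of the 26 surfactant and lamellar body genes, 2 had a called line term, Chi3l1 and Egfl6, a share near the 5.32% of all genes, and of the 20 lipid synthesis genes tested 1 had, Elovl6. At an unadjusted p under 0.05, 7 of the 26 passed, and DESeq2 called 3. Lyz2 spanned 18.3 to 163 CPM, Il33 12.3 to 111 CPM and Napsa 14.4 to 51.1 CPM among the GFP-positive libraries, and none of these 3 passed the line term (adjusted p = 0.63, 0.51 and 0.64). SN2294 was the lowest line for each. The 26 genes summed to 69278, 69638, 68902 and 64132 CPM in the GFP-positive cells of SN2285, SN2286, SN2293 and SN2294. Of the 5 AT2 markers 0 passed the line term in edgeR (adjusted p = 0.19 to 0.89) or DESeq2, and 1 had an unadjusted p under 0.05. A p that misses the threshold does not show that the lines are alike. In the GFP-negative cells the same sum was 10961, 8325, 8470 and 9720 CPM.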

How the data were processed

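RNA was sequenced from 8 libraries, GFP-positive and GFP-negative cells of 4 organoid lines, from 300 ng of RNA with 14 PCR cycles, per the labels' protocols. The deposited table holds raw counts per gene symbol, with no normalization by the authors. Per the submitters' processing notes, cutadapt 1.16, STAR 2.5.3a, featureCounts and Subread were used with the mouse build mm9; the sources used here do not give the annotation, the use of strand or the treatment of reads with several matches, so that overlapping, antisense and near-identical genes can share reads.

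Libraries held 5910344 to 16032633 counts over 23284 genes, of which 5616 were 0 in all 8. CPM were scaled with TMM factors over the 8 libraries; log2 CPM used a prior count of 2. Genes were tested with edgeR 4.0.16 (quasi-likelihood, robust; R 4.3.3) where filterByExpr kept them (minimum count 10, minimum total 15; 12848 genes), with Benjamini-Hochberg adjustment over all of them and an FDR of 0.05. The line term and each line against the mean of the other 3 came from a fit with sort and line. GFP-positive against GFP-negative cells came from a fit with sort alone. The libraries of a line pair by the line name in the labels: deviations from the sort means correlated at r = 0.322 to 0.455 within a line and at -0.00339 or less between lines. Such deviations sum to 0 within a sort, so the negative values between lines are partly built in. Abundance was ranked by mean CPM and variability by the SD of log2 CPM among genes at 5 CPM or more, and the text names the first 25 of each, the genes of each line contrast with the largest change, and the most abundant members of the marker lists. Further list members were named after their values were seen. Members and lists were chosen with earlier results of these data known. Lists use the table's older symbols Chi3l1, Dnahc5, Gm6320 and Ifi27l1. Lengths are exon unions of GENCODE M21, and promoters are RefSeq's, both on GRCm38, used for names, lengths and sequence only. Alternatives were DESeq2 1.42.0, its size factors, library size alone, no filter, other prior counts and CPM minimums, the longest transcript as length (chosen after seeing the data), and each library left out. The fit with sort and line was tested on simulated data with known changes: it called most of the changed genes, and unchanged genes made up a larger share of its calls than the FDR. A few list members are counted in the lists but not reported here by name.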

Additional observations from a re-analysis of the deposited data

Results flagged for a closer look

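In 209 genes and 21 lists examined, 12 had a GFP-positive library far from the other 3, by a gap to the nearest library that took over 0.829 of the range of the 4. Chance flags about 1 in 20 groups of 4, which is close to this share. SN2294 stood low for 9 of the 12. Scd2, a desaturase, had 3509 CPM in SN2294, against 4244 to 4376 CPM in the other 3. Hif3a had 0.780 CPM in SN2294, against 13.0 to 20.3 CPM. Sox9, a transcription factor of distal lung progenitors, had 3.12 CPM in SN2294, against 11 to 12.7 CPM. Cav1, the caveolin of AT1 and endothelial cells, had 12.4 CPM in SN2294, against 22.2 to 24.3 CPM. Dclk1, a kinase of tuft cells, had 2.53 CPM in SN2294, against 6.85 to 7.62 CPM, and it carried the tuft list, which summed to 3.18 CPM in SN2294, against 7.19 to 8.09 CPM. Ifi27l1, an interferon-induced gene, had 51.5 CPM in SN2294, against 113 to 129 CPM. The 5 AT2 markers summed to 26910 CPM in SN2294, against 29624 to 30112 CPM, and the surfactant and lamellar body list to 64132 CPM, against 68902 to 69638 CPM. That list holds all 5 markers, so these flags overlap. SN2294 was the lowest line for 1 of the 5, Sftpc, and the highest for 1. Of the 26 genes of the list it was the lowest line for 11 and the highest for 4. In the fit with both sorts, the median log2 fold change of SN2294 was 0.157 for the markers and 0.02 for the list.

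SN2285 stood apart for the other 3. Clu had 24058 CPM in SN2285, against 20146 to 20762 CPM. Mki67 had 647 CPM in SN2285, against 827 to 842 CPM, and Chka, choline kinase, 173 CPM, against 201 to 204 CPM.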

How the results depend on the processing

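With the line as a replicate block, 2934 genes were called higher and 3234 lower in GFP-positive cells, against 2430 and 2801 without it. The interferon list went from 0 calls to 2 higher and 11 lower and the immediate early list from 6 to 11 lower, the cell cycle list from 9 to 13 higher, and the sign of the median changed for 0 of the 21 lists. Library size alone gave 1509 genes higher and 4188 lower between the sorts, and 451 higher in SN2294. With no filter on low counts the line term was called for 1090 genes, and the counts were 254 higher and 129 lower in SN2285, 103 lower in SN2286, 99 higher and 17 lower in SN2293 and 446 higher in SN2294. DESeq2 called 91 lower in SN2286 and 13 lower in SN2293. Leaving out 1 library gave 370 to 1824 genes for the line term, 23 to 667 higher and 8 to 539 lower in SN2285, 103 to 558 and 5 to 431 in SN2286, 11 to 348 and 0 to 70 in SN2293, 111 to 449 and 339 to 757 in SN2294, and 2067 to 3019 higher and 2468 to 3302 lower between the sorts. The cause was not tested. Per kilobase 16 of the 25 most abundant genes stayed, by union of exons and by longest transcript, and 24 to 25 with a library left out. Of the 25 most variable, 13 stayed at a minimum of 20 CPM and 15 to 24 with a library left out, 15 of them without SN2294. Among single genes, 0 reversed. Precision is limited by 1 library per line and sort. With a library left out, its line keeps 1 library, so the line calls of such fits do not check those of the full fit. The GFP-negative library of SN2294 was the shallowest and its GFP-positive library the deepest; leaving out either raised the calls of the line term, to 1824 and 1462, and the part of depth was not tested.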
